A study of Homo sapiens with 12 samples.

Results

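The comparison of U937 cells after 24 h of JS-K with U937 cells after 4 h of JS-K rests on 6 of the 12 arrays in the series, 3 at each time, chosen by their sample titles. It addresses which of the changes seen at 4 h were undone, kept or extended by 24 h, and which genes moved only later. U937 is an established human leukemia line of the myelomonocytic lineage. JS-K is a prodrug that releases nitric oxide, and the title of the series places it in work on redox balance and the death of cancer cells. All cells were grown in RPMI medium with serum. The vehicle cells received DMSO and the other groups JS-K, for 90 min, 4 h or 24 h, with 3 biological replicates in each of the 4 groups. The dose of JS-K and the length of the vehicle exposure are not given in the sources used here. No vehicle was collected beside each JS-K time, so time in culture and time with JS-K cannot be told apart in any value below.

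JS-K is opened by glutathione, with or without glutathione S-transferases, and this step uses glutathione while it frees nitric oxide. Cells meet such electrophilic and nitrosative stress through the transcription factor NRF2, which raises enzymes that make glutathione, return thioredoxin to its reduced form and break down heme. Myeloid cells that leave the cell cycle and mature toward macrophages generally lower MYC, the replication genes and ribosome production, and raise lysosomal and surface receptor genes.

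The values are log2 expression levels, 1 per gene and array, and the brightest probe set (by mean over 12 arrays) stood for each of 19775 genes. A level under 4 was read as low, and 61.8% to 62.1% of the probe sets on each of the 6 arrays lay there. A gene was called where limma's moderated test over all 12 arrays gave an adjusted p under 0.05, with Benjamini-Hochberg adjustment over all genes. Replicate 2 of the 4 h group stood apart, with a median over all probe sets of 3.10 against 2.91 to 2.99 on the other 5 arrays, and correlations of at most 0.9935 with its group against 0.9979 for the other pair. Control probe sets moved between the groups as well. The added poly-A spikes averaged 7.03 ± 0.15 (SD, n = 3) at 4 h and 8.47 ± 0.05 at 24 h, against 3.04 ± 0.05 in vehicle and 3.08 ± 0.06 at 90 min. The hybridization spikes went from 10.2 ± 0.30 at 4 h to 11.7 ± 0.04 at 24 h, and the 28S ribosomal RNA probe sets 6.45 ± 0.32 at 4 h and 8.03 ± 0.16 at 24 h. By the poly-A spikes vehicle and 90 min stood together against 4 h and 24 h, so what set these arrays apart cannot be told apart from JS-K time in the comparisons with vehicle and in the courses built on them. Every 24 h array also read above every 4 h array in the poly-A spikes, the hybridization spikes and 28S. The hybridization spikes were at 9.96 ± 0.18 in vehicle and 10.03 ± 0.18 at 90 min, near their 4 h mean. The comparison of 24 h with 4 h thus carries control shifts of its own. The part of these shifts in the gene results was not tested, for this comparison or for those with vehicle. Markers of the myeloid lineage were mixed. CTSG and PRTN3, proteases of the azurophil granule, stood at 13.37 ± 0.03 and 11.51 ± 0.22 in vehicle. MPO, the peroxidase of the same granule (2.37 ± 0.02), and CD14, which marks monocytes (2.16 ± 0.01), were at the low end of the scale there and at both JS-K times, and 5 of the 19 azurophil and progenitor genes lay under 4 on all 6 arrays.

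Between 4 h and 24 h the replication machinery, ribosome production, nucleotide synthesis, mitochondrial translation and protein folding genes fell, while genes of mitosis, cholesterol synthesis, the lysosome and macrophage function rose. In all, 2535 genes were higher at 24 h than at 4 h (12.8% of the genes tested) and 2114 were lower (10.7%), so that 23.5% were called. Among the 9551 genes with a mean level of at least 4 the shares were 24.7% higher and 21.8% lower. The lists below count all their measured members, also those at low levels, and are read against the shares over all genes (12.8% and 10.7%). Most lists hold a larger part of well expressed genes than the array does, and no list as such was tested. The change reached 1 log2 unit, which is 2-fold, in 550 of the genes that rose and 528 of those that fell. The median difference over all genes was -0.01. Without replicate 2 of the 4 h group 2352 genes were higher and 2619 lower, so which direction was the more frequent rested on that array.

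**Figure D1:**
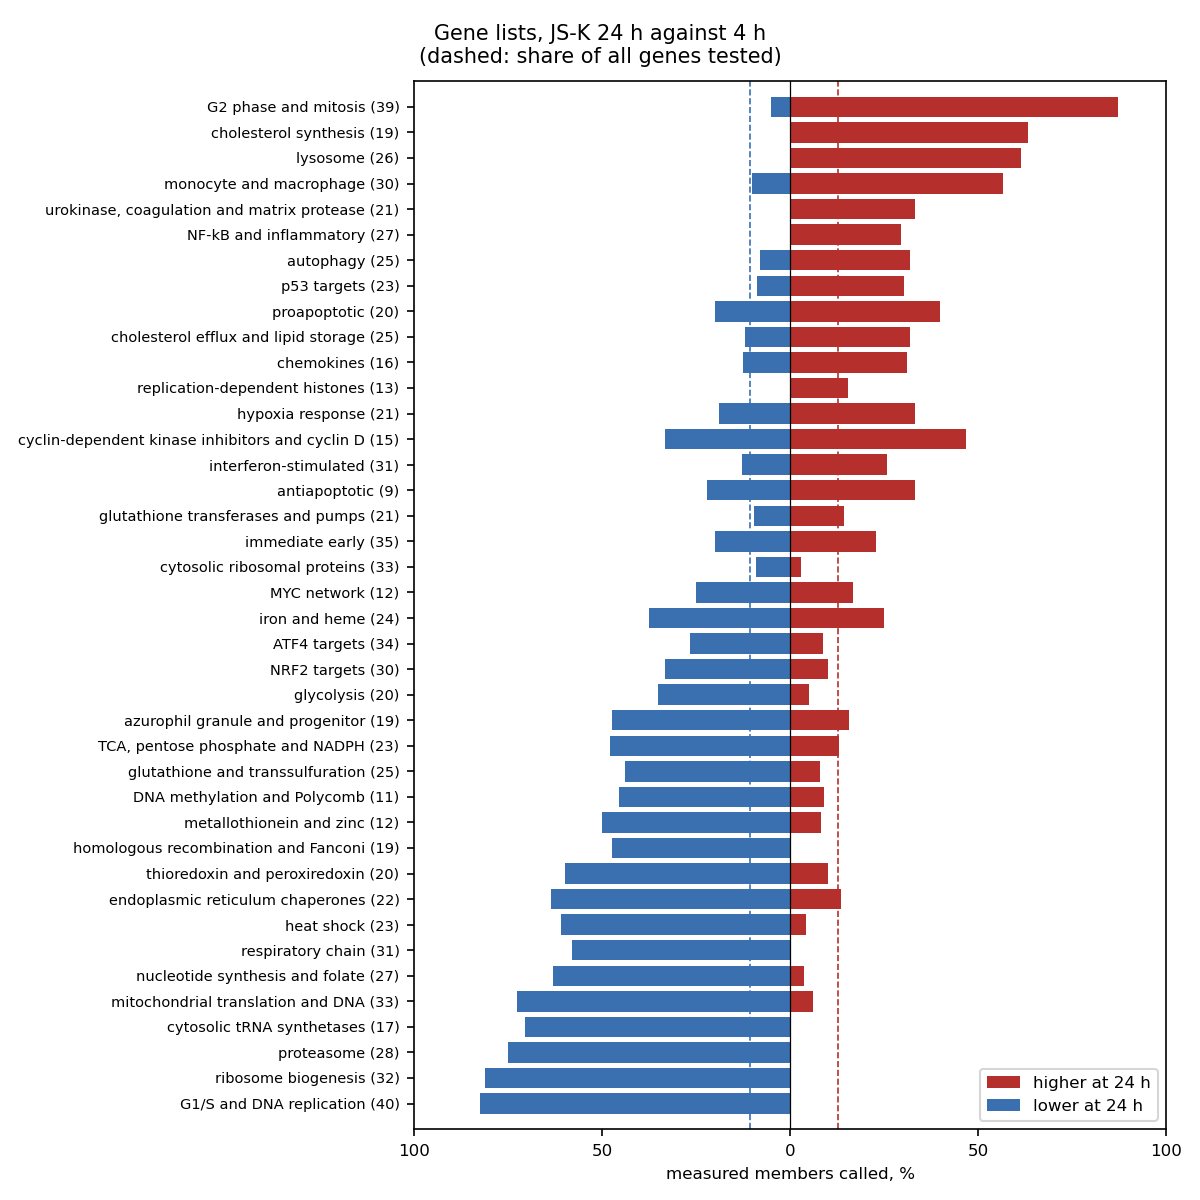
Share of the measured members of each gene list called higher (red, right) or lower (blue, left) at 24 h than at 4 h, in percent, with the number of measured members in parentheses. Dashed lines mark the shares among all genes tested (12.8% and 10.7%). G2 phase and mitosis stands at the top with 34 of 39 higher, and G1/S and DNA replication at the bottom with 33 of 40 lower.

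The largest rises included several genes of macrophages and dendritic cells. TDO2, which encodes the tryptophan-degrading enzyme tryptophan 2,3-dioxygenase, read 2.39, 2.50 and 2.42 at 4 h and 7.79, 7.71 and 7.85 at 24 h, a difference of 5.35 ± 0.08 (SE; limma adjusted p = 2.72e-12). CD86, a costimulatory receptor of antigen-presenting cells, read 2.15, 2.19 and 2.14 at 4 h and 6.92, 6.43 and 7.18 at 24 h. Neither gene was above the low range on any array before 24 h, so the size of these rises depends on the floor of the scale. The others among the 10 largest, by log2 difference, included GPR34 (5.05), a receptor for lysophosphatidylserine, and ATP6V0D2 (4.39), a subunit of the proton pump of macrophages and osteoclasts. PSD3 (4.20) and LY96 (4.18), which encodes the MD-2 partner of the lipopolysaccharide receptor TLR4, were also among them. ARID5B (4.01), RNA45SN5 (3.94), annotated as the ribosomal RNA precursor, CD101 (3.93) and EMP1 (3.92) completed the 10. Not all probe sets were called higher for ARID5B (1 of 5), TDO2 (1 of 2) and EMP1 (4 of 6), and none of their probe sets was called lower. RNA45SN5 went from 5.84, 6.86 and 6.14 to 10.08, 10.32 and 10.24. The 28S control probe sets given above rose beside it and the 18S probe sets read 8.16 ± 1.55 and 10.5 ± 0.96; their part in this result was not tested.

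The largest falls included genes of myeloid progenitors, transport, RNA modification and replication. MS4A3, a surface protein of granulocyte and monocyte progenitors, read 10.89, 10.58 and 10.82 at 4 h and 6.06, 5.89 and 6.18 at 24 h, 26.3-fold lower (log2 difference -4.72 ± 0.09, limma adjusted p = 2.11e-11). PLAC8 went from 9.11, 8.50 and 8.99 to 5.04, 5.49 and 3.62, so that the 24 h arrays spread more widely than those at 4 h but did not overlap with them. Then came IPO4 (-3.77), an importin that carries histones and ribosomal proteins into the nucleus, SLC29A1 (-3.60), the main equilibrative nucleoside transporter, PUS7 (-3.59) and QTRT1 (-3.29), which modify RNA bases, MCM10 (-3.26), an initiator of replication, FAM161A (-3.22), HMOX1 (-3.22) and HLA-DRA (-3.19).

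Each gene was then placed by its call at 4 h against vehicle and its later course. Of the 8021 genes called at 4 h against vehicle (40.6% of those tested), 4735 were higher and 3286 lower. Recovering genes were called in the opposite direction between 4 h and 24 h, persisting genes were not called between 4 h and 24 h and were called at 24 h against vehicle in the 4 h direction (36.7% of all genes were called at 24 h against vehicle), and genes that moved further were called in the same direction again. Among genes raised at 4 h, 260 recovered (5.49%), 882 persisted (18.6%) and 600 rose further (12.7%). Among genes lowered at 4 h, 620 recovered (18.9%), 1381 persisted (42%) and 947 fell further (28.8%). The remaining 2993 raised genes had a median 4 h difference of 0.09, and the remaining 338 lowered genes one of -0.48. The median 4 h difference of all genes was 0.06, and with array medians subtracted 3969 genes were called at 4 h in place of 8021. The percentages of the raised genes are thus taken over many differences near that median. They are not to be set against those of the lowered genes. A further 1032 genes were higher and 770 lower at 24 h than at both 4 h and vehicle with no call at 90 min or 4 h. The 4 h and vehicle arrays enter 2 of the contrasts that define these classes, so the classes describe courses and are no independent test of recovery. The number of genes called at 4 h against vehicle ran from 3423 to 11578 as single arrays were left out, so the class counts are less firm than the single genes.

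**Figure D2:**
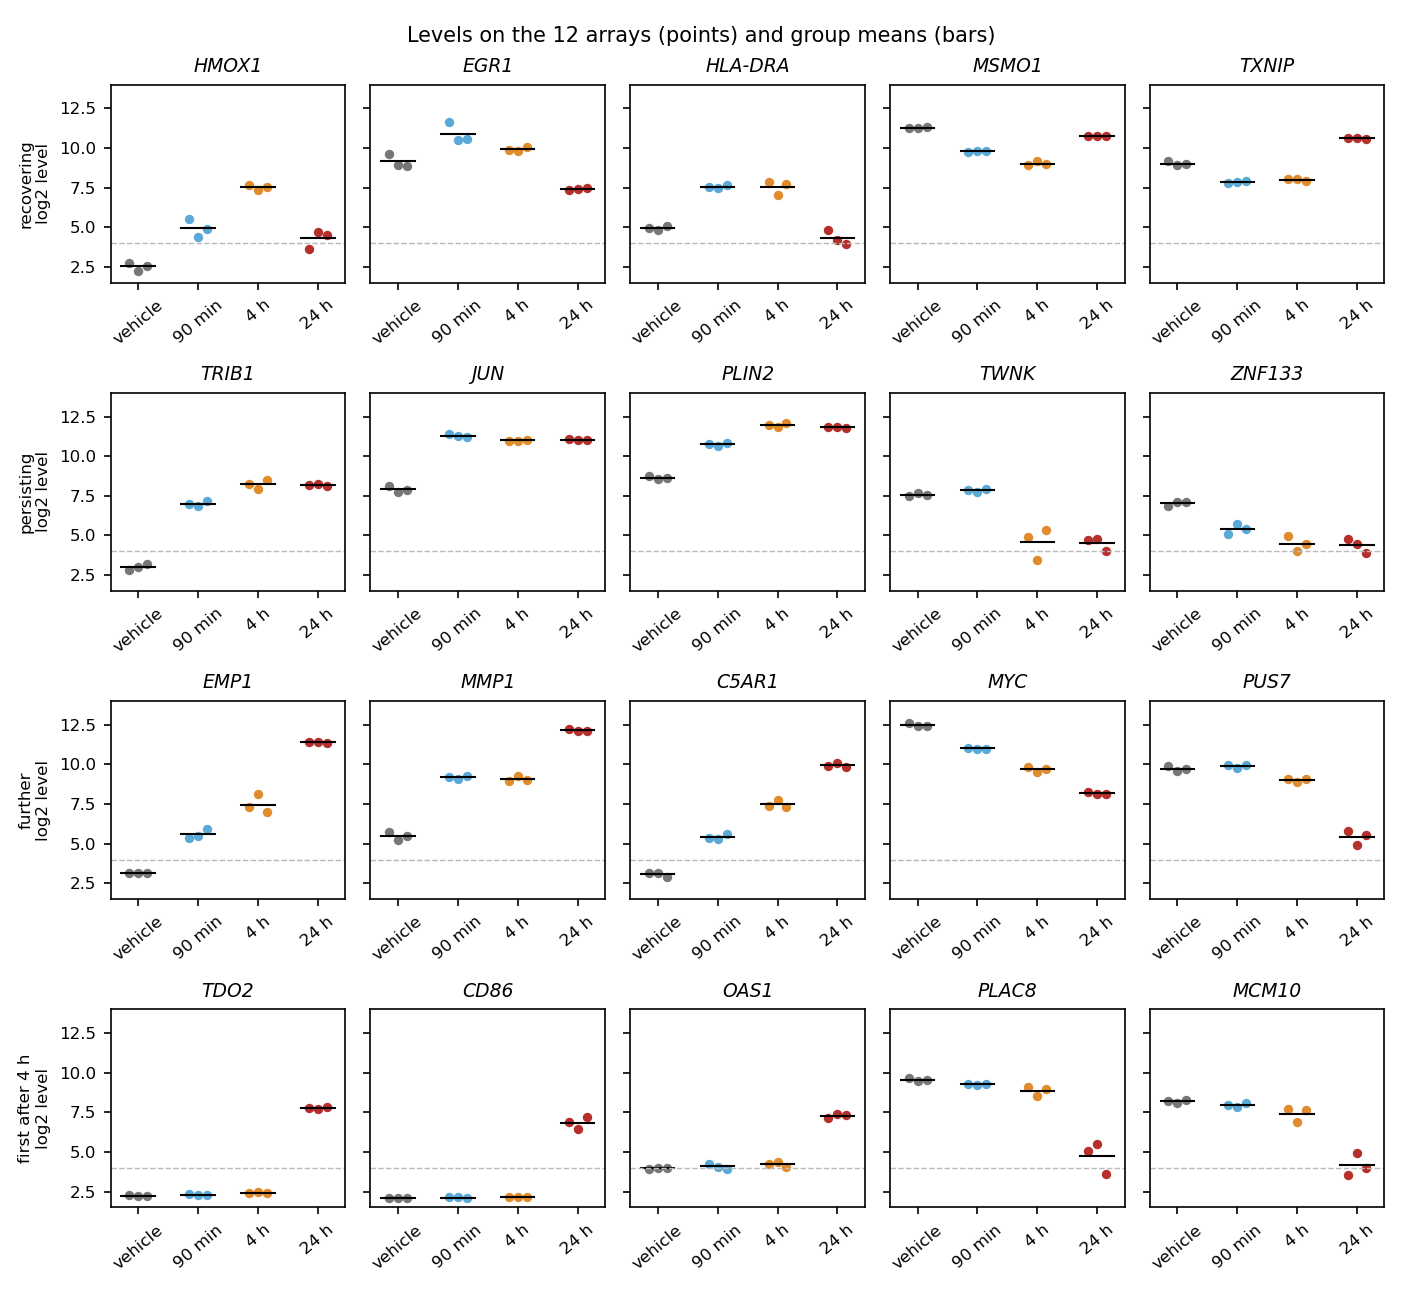
Log2 level of 20 genes on the 12 arrays, 1 row for each course, with a bar at the mean of the 3 points of each group (vehicle, then JS-K at 90 min, 4 h and 24 h); the dashed line marks a level of 4. HMOX1 falls from 7.51 at 4 h to 4.29 at 24 h, JUN stays at 10.99 and 11.05, MMP1 climbs from 9.07 to 12.14, and TDO2 leaves the floor only at 24 h.

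Recovery was plainest for the heme oxygenase gene HMOX1, an NRF2 target that breaks down heme. It read 7.66, 7.34 and 7.52 at 4 h and 3.65, 4.71 and 4.52 at 24 h, against a vehicle mean of 2.53 ± 0.24 (SD, n = 3). The 24 h arrays lay below all 4 h arrays and above all vehicle arrays, with a fall of 3.22 ± 0.30 after 4 h (limma adjusted p = 5.56e-06) and 1.76 ± 0.30 left over vehicle (adjusted p = 4.35e-04). CXCL8, the neutrophil chemokine interleukin 8, fell by only 0.74 ± 0.06 and still stood 4.73 above vehicle at 24 h. FZD7 (a Wnt receptor, -0.62), GPR183 (an oxysterol receptor, -0.44) and HP (the hemoglobin-binding haptoglobin, -1.72) also kept part of their 4 h rise. Of the 260 raised genes that recovered, 128 were no longer called against vehicle, 61 stayed above it and 71 passed below it.

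Some of the raised genes passed below vehicle, and others were no longer called against it. EGR1, an immediate early transcription factor, read 9.88, 9.79 and 10.08 at 4 h and 7.32, 7.38 and 7.45 at 24 h, which is below the vehicle mean of 9.14 ± 0.42 by 1.76 (limma adjusted p = 1.48e-04). EGR3, a related factor, went from 5.44 to 3.67, where its difference from vehicle was no longer called (0.58 ± 0.22, adjusted p = 0.0566). CYBB, which forms the catalytic core of the oxidase that phagocytes use to make superoxide, fell from 8.71 to 6.70. Its vehicle mean was 8.06 ± 0.53, above its mean at 24 h. HLA-DRA, the alpha chain of the class II antigen-presenting molecule HLA-DR, read 7.85, 7.03 and 7.72 at 4 h and 4.84, 4.22 and 3.96 at 24 h. The difference from its vehicle mean of 4.95 ± 0.10 was not called at 24 h (-0.61 ± 0.24, limma adjusted p = 0.064).

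Falls at 4 h in cholesterol synthesis were undone in part. Of 19 measured genes, 16 were lower at 4 h than in vehicle (16.6% of all genes were called lower there), with a list median of -1.22. Between 4 h and 24 h 12 rose and none fell, with a median of 0.59 (9 rose and the median was 0.31 with probe sets averaged, and 1 fell without replicate 2 of the 4 h group), and 11 were placed among the recovering genes. MSMO1, a sterol C4 demethylase, read 11.28 ± 0.03 in vehicle, 8.92, 9.16 and 8.97 at 4 h and 10.75, 10.73 and 10.76 at 24 h. The rise of 1.73 ± 0.06 (limma adjusted p = 5.07e-09) left it 0.53 below vehicle. HMGCS1, which makes the precursor of mevalonate, rose by 1.02 to 7.58 and INSIG1, the sterol sensor that holds back SREBP, by 0.67 to 11.59, and both stayed at least 1.40 below vehicle. STARD4 (1.04), MVK (0.96) and SQLE (0.90) rose as well. SREBF1, which encodes SREBP-1 and was kept in a separate list of lipid genes, went from 5.25, 4.47 and 4.92 to 6.33, 6.36 and 6.33. NUDT16 and TCEA2 were also among the largest falls with a later rise, but their later calls were lost when the probe sets of the gene were averaged (0.15 and 0.22).

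The redox genes took separate courses after 4 h. The 30 measured NRF2 targets held 14 genes raised at 4 h (23.9% of all genes were). From 4 h to 24 h 3 rose and 10 fell, a share lower of 33.3%, with a list median of -0.08 (-0.13 without replicate 2 of the 4 h group, -0.04 with probe sets averaged). GCLM, the modifier subunit of the enzyme that limits glutathione synthesis, read 10.99, 10.86 and 10.93 at 4 h and 9.47, 9.68 and 9.48 at 24 h, back at its vehicle mean of 9.44 ± 0.17 (difference at 24 h 0.11 ± 0.09, limma adjusted p = 0.308). GCLC, the catalytic subunit of the same enzyme, was not called at 4 h (0.07 ± 0.11, adjusted p = 0.564). It then went from 9.01, 9.08 and 9.08 to 7.59, 7.12 and 7.40, below every vehicle array. The subunits therefore both fell after 4 h, from different starting points relative to vehicle.

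SLC7A11, the cystine importer that feeds glutathione synthesis, read 10.59, 10.54 and 10.60 at 4 h and 9.60, 9.56 and 9.34 at 24 h. This was a fall of 1.08 ± 0.09 (limma adjusted p = 1.77e-06) that left it 1.27 above its vehicle mean of 8.22. TXNRD1, which reduces thioredoxin, fell by 0.58 ± 0.07 to 10.76, and PIR by 0.67 to 9.40; their 24 h differences from vehicle were 0.10 ± 0.07 and -0.11 ± 0.08, not called. NQO1, a quinone reductase, and SRXN1, which repairs overoxidized peroxiredoxins, were still above vehicle at 24 h, by 1.51 and 0.80: NQO1 read 10.56, 10.18 and 10.25 at 4 h and 10.54, 10.67 and 10.53 at 24 h (difference 0.25 ± 0.09, adjusted p = 0.0686), and SRXN1 8.17 and 7.98 on average (-0.18 ± 0.13, adjusted p = 0.471). NQO1 was called higher at 24 h without replicate 1 of the 4 h group (0.36), after quantile normalization, and when only genes with a mean of at least 4 were tested. HMOX1, like NQO1 a textbook NRF2 target, fell by 3.22 over the same interval.

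TXNIP, which binds and inhibits thioredoxin, went the other way. It read 9.01 ± 0.12 in vehicle, 8.07, 8.02 and 7.91 at 4 h and 10.62, 10.61 and 10.56 at 24 h. The rise of 2.60 ± 0.08 (limma adjusted p = 9.06e-10) took it 1.58 above vehicle, and all 3 of its probe sets rose. Over the 20 thioredoxin and peroxiredoxin genes 12 fell (median -0.41, or -0.26 with probe sets averaged) and 2 rose, TXNIP and the methionine sulfoxide reductase gene MSRB2 (0.84). PRDX4 (-0.81), the peroxiredoxin of the endoplasmic reticulum, and catalase, CAT (-0.61), were not called at 4 h and fell later. PRDX2 also fell (-0.64), but its probe sets disagreed, with 1 higher and 1 lower, and their mean was not called (-0.10).

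**Figure D3:**
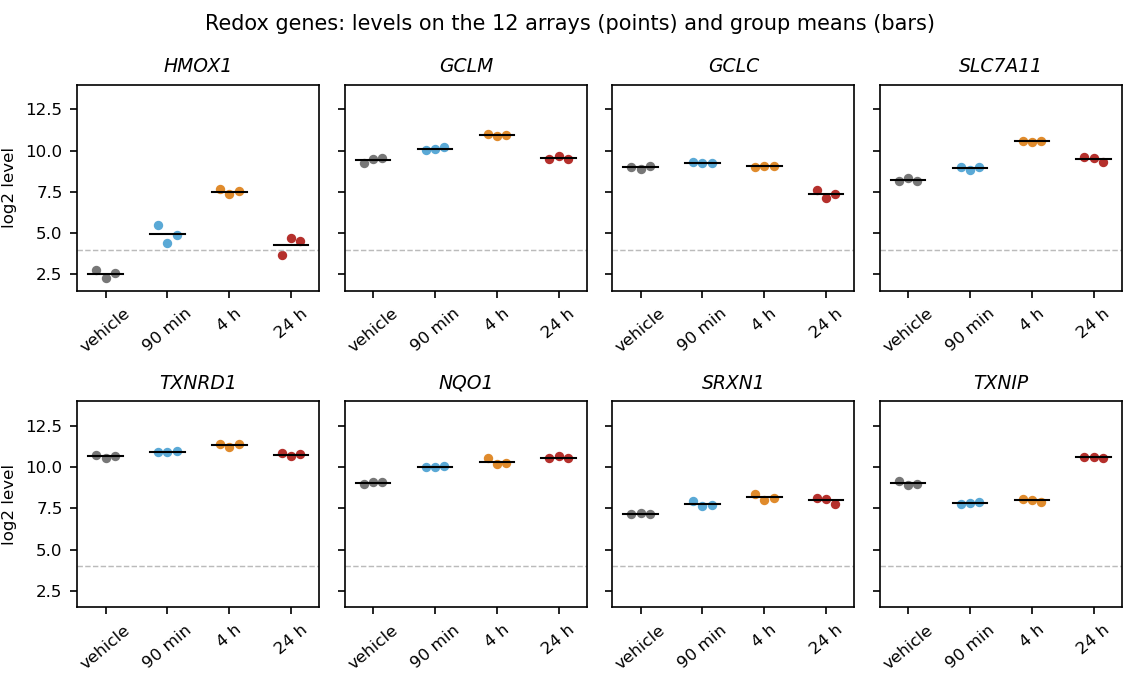
Log2 level of 8 redox genes on the 12 arrays, with a bar at the mean of the 3 points of each group (vehicle, then JS-K at 90 min, 4 h and 24 h); the dashed line marks a level of 4. HMOX1, GCLM, SLC7A11 and TXNRD1 peak at 4 h, GCLC drops only at 24 h, NQO1 and SRXN1 stay up, and TXNIP dips and then rises to 10.60.

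In glutathione metabolism at large 2 of 25 genes rose and 11 fell. CTH, which makes cysteine by transsulfuration, fell by 1.26 to 7.11 and CHAC2, which degrades glutathione, by 1.12 to 7.71. CHAC1, its stress-induced relative, stayed at the floor (2.18 and 2.20). Among 21 glutathione transferases and export pumps 3 rose and 2 fell, which is 14.3% and 9.52%, near the shares over all genes. GSTA4 recovered from 6.23 to 7.46 (1.23 ± 0.16, limma adjusted p = 9.81e-05), close to its vehicle mean of 7.54. The efflux pump ABCC4, which carries glutathione conjugates and cyclic nucleotides, fell from 9.36 to 7.50. GSTP1, a transferase abundant in many tumours, stood at 11.31 and 11.13, a difference of -0.18 ± 0.13 (adjusted p = 0.505).

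Genes that kept their 4 h level included regulators of early stress and differentiation. TRIB1, a pseudokinase that marks the C/EBP factors for degradation, read 8.24, 7.96 and 8.48 at 4 h and 8.21, 8.24 and 8.10 at 24 h, against 3.02 ± 0.17 in vehicle, and the groups overlapped (difference -0.04 ± 0.15, limma adjusted p = 0.90). JUN, a subunit of the transcription factor AP-1, read 10.98, 10.97 and 11.02 at 4 h and 11.08, 11.03 and 11.03 at 24 h, still 3.14 above vehicle. PLIN2, which coats lipid droplets, held at 11.97 and 11.83, PRDM1, a repressor that drives terminal differentiation, at 6.18 and 6.55, and PLAUR, the urokinase receptor, at 11.22 and 11.43. FOS, the usual partner of JUN, had peaked at 90 min (8.56) and read 6.49 at 4 h and 6.37 at 24 h, 1.10 above vehicle. Its 4 h arrays ran from 5.57 to 6.96, and its later difference was -0.12 ± 0.34 (adjusted p = 0.871).

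The genes that stayed down included mitochondrial and pyrimidine functions. TWNK, the helicase of mitochondrial DNA, read 7.58 ± 0.11 in vehicle, 4.92, 3.44 and 5.35 at 4 h and 4.71, 4.80 and 3.99 at 24 h. The 4 h and 24 h arrays overlapped and varied widely, so the later difference of -0.07 has an SE of 0.38. ZNF133, a zinc finger repressor, held at 4.48 and 4.40 against 7.02 in vehicle. DHODH, the mitochondrial enzyme of pyrimidine synthesis, read 3.36, 3.19 and 3.63 at 4 h and 2.70, 3.15 and 2.56 at 24 h, a difference of -0.59 ± 0.21 (limma adjusted p = 0.0606) that was called in 5 of the alternative analyses. The noncoding transcripts ASH1L-AS1 and DPH5-DT completed the 5 deepest persisting falls.

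Among the genes that rose at 4 h and rose further were secreted and surface proteins. EMP1, a membrane protein, climbed from 3.13 in vehicle to 7.29, 8.16 and 6.97 at 4 h and 11.42, 11.41 and 11.34 at 24 h. MMP1, the interstitial collagenase, read 8.96, 9.25 and 9.01 at 4 h and 12.21, 12.11 and 12.11 at 24 h, against 5.48 ± 0.25 in vehicle; the later rise was 3.07 ± 0.12 (limma adjusted p = 6.71e-09). C5AR1, the receptor for complement C5a, rose by 4.40 to 4 h and by a further 2.46 to 9.95. GPR34, PSD3, LY96 and S100A2, a calcium-binding protein, took most of their rise after 4 h: GPR34 rose by 0.87 up to 4 h and by 5.05 after it, and S100A2 by 0.82 and 3.72. The falls that deepened included PUS7 (from 9.01 to 5.42), FAM161A (5.71 to 2.49), the origin licensing factor CDC6 (7.73 to 4.76), ALDH5A1, the last enzyme of GABA breakdown (5.95 to 3.03), and FERMT1, an integrin activator (6.86 to 3.96).

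Genes that were called only after 4 h held 256 rises and 194 falls of at least 2-fold. Beside TDO2, CD86, ATP6V0D2, ARID5B and CD101, the rises took in the interferon-induced OAS1, which read 4.23, 4.35 and 4.05 at 4 h and 7.17, 7.38 and 7.30 at 24 h (3.07 ± 0.14, limma adjusted p = 2.15e-08). Its vehicle mean was 3.97 ± 0.05 and its difference at 4 h was not called (0.24 ± 0.14, adjusted p = 0.16). The falls were led by PLAC8, SLC29A1, QTRT1, MCM10 and PCOLCE2, an enhancer of procollagen cleavage. No call at 4 h does not mean no earlier change. PLAC8 (-0.70, limma adjusted p = 0.109) and MCM10 (-0.78, adjusted p = 0.0547) already lay below every vehicle array at 4 h. SLC29A1 and QTRT1 overlapped with vehicle there, and PCOLCE2 lay above it. SLC29A1 read 9.60, 8.94 and 9.22 at 4 h and 5.91, 5.51 and 5.56 at 24 h, and MCM10 7.73, 6.88 and 7.62 and then 3.52, 4.95 and 4.00. Without replicate 2 of the 4 h group more genes fell into this course, 2207 in place of 1802.

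Genes were also picked by their difference between 90 min and vehicle, a contrast without the 4 h and 24 h levels, although those arrays enter the spread shared by the fit and the choice of probe set. Of 120 genes called and at least 2-fold higher at 90 min, 47 rose and 25 fell between 4 h and 24 h, with a median of 0.32. At any size 4.03% of all genes were called higher at 90 min. The 47 and 25 are 39.2% and 20.8%, against 12.8% and 10.7% of all genes. Among genes with a mean of at least 4 the shares were 24.7% and 21.8%, so the share of falls was near that. Their median level went from 5.64 in vehicle to 7.53 at 4 h and 7.75 at 24 h. Of 156 genes called and at least 2-fold lower at 90 min, 40 rose (25.6%) and 17 fell (10.9%), with a median of 0.10. At any size 5.62% of all genes were called lower at 90 min. The median level of the 156 genes was 6.97 in vehicle, 5.49 at 4 h and 5.51 at 24 h. The median level of both groups at 24 h thus lay near that at 4 h. Single genes moved far within them: EMP1, MMP1 and C5AR1 were among the early risers that rose again, HMOX1, HLA-DRA and EGR1 among those that fell, TXNIP rose after an early fall, and MYC fell again. Averaging probe sets lowered the counts to 30 rises among the early risers and 9 falls among the early fallers.

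The cell cycle genes split by phase. In the G1/S and replication list 33 of 40 genes fell after 4 h and none rose (median -0.93). In the G2 and mitosis list 34 of 39 rose and 2 fell, or 1 with probe sets averaged (median 0.82). With array medians subtracted they were 32 lower and 34 higher, and without replicate 2 of the 4 h group 35 lower and 34 higher. Both courses had begun by 4 h. Against vehicle 29 of the 39 mitotic genes were then higher and 1 lower (median 0.36), where 23.9% of all genes were higher. Of the 40 replication genes 23 were lower at 4 h than in vehicle and 3 higher (median -0.33), where 16.6% of all genes were lower. MCM10 (-3.26) and CDC6 (-2.96), which load and start the replicative helicase, and the cyclins CCNE1 (-2.83) and CCNE2 (-2.30), which drive entry into S phase, fell most. GINS2, part of that helicase, read 9.64, 9.35 and 9.59 at 4 h and 7.41, 7.29 and 7.16 at 24 h, and MCM2, another part of it, 11.28, 10.88 and 11.10 and then 9.25, 9.52 and 9.29. At 4 h they had already fallen by 0.62 and 0.61. CCNE2 had not: it rose by 1.15 at 4 h to 10.85 and then fell to 8.55, below vehicle.

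On the mitotic side CDC25B, a phosphatase that activates cyclin-dependent kinase 1, read 10.01, 9.68 and 9.76 at 4 h and 11.48, 11.47 and 11.37 at 24 h (1.62 ± 0.08, limma adjusted p = 4.88e-08). CENPE, a kinetochore motor, rose from 8.58 to 10.07, and HMMR, a spindle protein, from 10.97 to 12.43. BIRC5, the survivin of the chromosomal passenger complex, rose by 1.32, NEK2, a centrosome kinase, by 1.25, and CCNB1, the mitotic cyclin B1, by 0.73 to 12.70. TOP2A, the topoisomerase of chromosome condensation, read 12.70 and 12.90 (0.21 ± 0.08, adjusted p = 0.108), and another of its probe sets was called lower. The 2 members that fell, named because they go against the list, were CDK1 (12.01 to 11.35), the kinase partner of cyclin B1, and the checkpoint gene BUB3 (12.18 to 11.63).

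**Figure D4:**
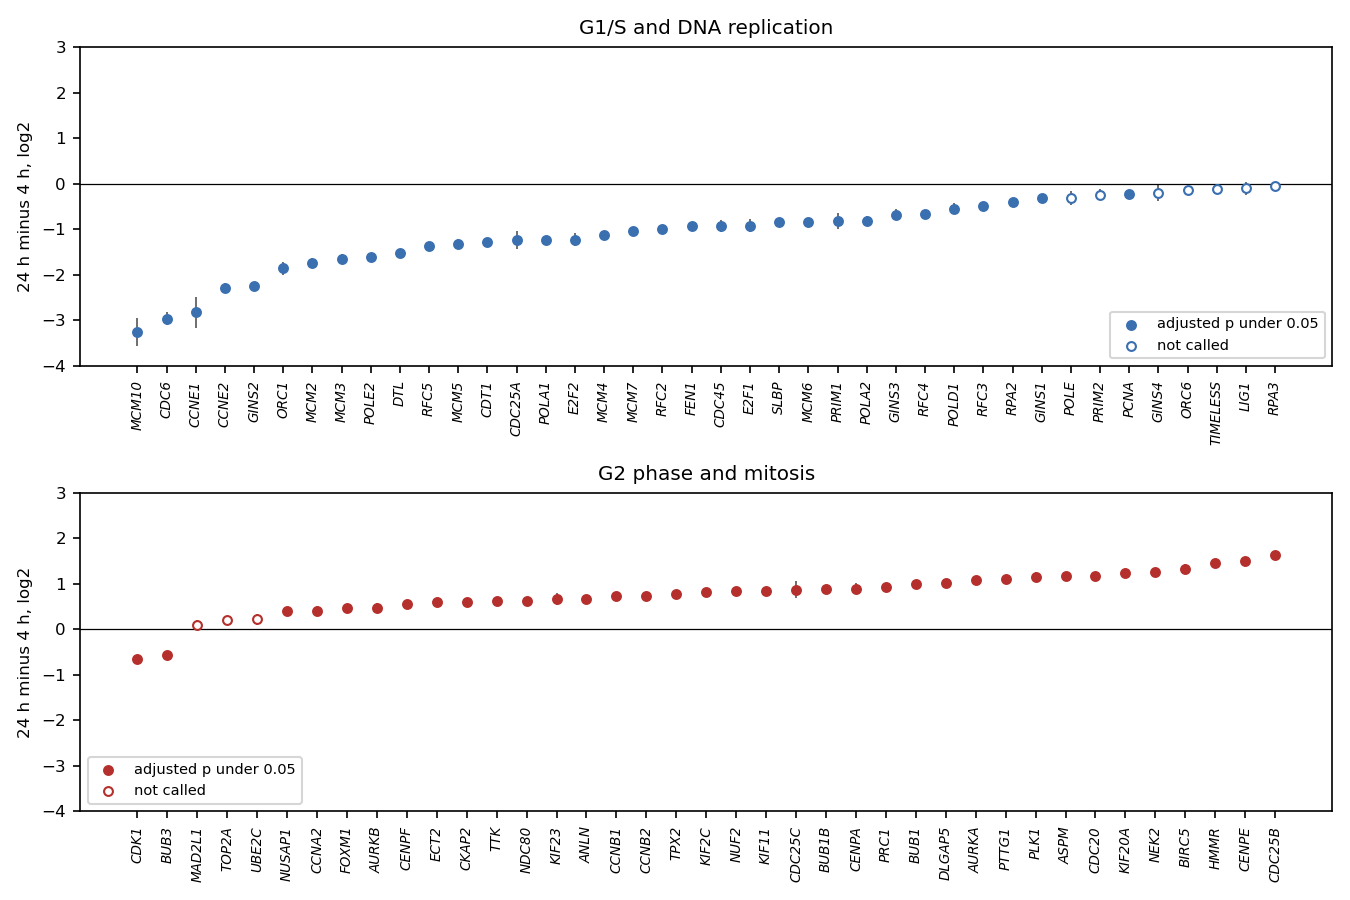
Difference between 24 h and 4 h on the log2 scale for each measured gene of G1/S and DNA replication (top) and of G2 phase and mitosis (bottom), sorted by size, with bars for 1 SE; filled points passed the adjusted p of 0.05 and open points did not. The top row runs from MCM10 at -3.26 to RPA3 at -0.05, and in the bottom row CDK1 and BUB3 alone are called lower.

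Since these lists moved in opposite directions, the promoters of their members were searched for the letters bound by the factors classically tied to each phase. The 250 bases before the start of each gene in RefSeq (GRCh38.p14) were read on both strands. The E2F letters TTTCCCGC or TTTGGCGC stood in 14 of 34 replication promoters (41.2%), in 2 of 32 mitotic promoters (6.2%) and in 2.5% of the 15384 promoters of measured genes (2.0% of all 27305 promoters). The cell cycle homology letters TTTGAA stood in 15 of 32 mitotic promoters (46.9%), in none of the 34 replication promoters and in 10.6% of those of measured genes (13.6% of all). Among the other lists the highest shares were 27.3% for E2F in DNA methylation and Polycomb promoters (3 of 11) and 38.5% for the cell cycle homology letters in histone promoters (5 of 13). The median difference was -1.14 for the 14 replication genes with E2F letters and -0.89 for the 20 without, and 0.87 for the 15 mitotic genes with the cell cycle homology letters and 0.82 for the 17 without. The letters CCAAT, which neither of these motifs contains, stood in 55.9% of the replication and 71.9% of the mitotic promoters against 34.1% of those of measured genes. Outside the cell cycle, the NRF2 letters TGACNNNGC stood in 7 of 25 promoters of NRF2 targets (28%) against 12% of those of measured genes, and more often in 4 of the other lists, up to 46.7% in the lysosome list. The sterol response letters TCACCCCAC stood in 1 of 17 cholesterol synthesis promoters (5.9%) and 1 of 20 heat shock promoters (5%) against 0.3%, and CCAAT in 15 of those 17 (88.2%) and in 90.5% of the promoters of endoplasmic reticulum chaperones. The E-box CACGTG, letters that MYC shares with other factors, stood in 12% of ribosome biogenesis promoters against 7.8% of those of measured genes. It stood in 20.8% of nucleotide synthesis, 24% of immediate early and 46.7% of lysosome promoters. The AP-1 letters TGACTCA stood in none of 25 immediate early promoters against 3.2%. AP-1 and NRF2 letters can share bases. A match describes the sequence and is no evidence of binding here.

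The 150 bases just before the start are shown for the 3 members of each list with the largest difference among those with a match there, with the match in capitals, read 5′ to 3′ on the strand of the gene. The replication genes are GINS2 (chr16:85688955-85689104, minus strand, match 31 bases before the start), DTL (chr1:212035598-212035747, plus strand, 8 bases) and CDT1 (chr16:88803639-88803788, plus strand, 35 bases). DTL, which targets CDT1 for destruction, fell from 10.53 to 9.01, and CDT1, which loads the helicase, from 9.75 to 8.48.
GINS2: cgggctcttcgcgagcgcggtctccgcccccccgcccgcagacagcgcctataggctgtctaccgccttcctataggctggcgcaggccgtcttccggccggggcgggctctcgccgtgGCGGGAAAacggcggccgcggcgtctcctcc
DTL: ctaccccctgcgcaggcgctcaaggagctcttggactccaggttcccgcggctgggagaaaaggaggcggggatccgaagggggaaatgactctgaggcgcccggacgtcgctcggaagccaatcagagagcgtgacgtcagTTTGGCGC
CDT1: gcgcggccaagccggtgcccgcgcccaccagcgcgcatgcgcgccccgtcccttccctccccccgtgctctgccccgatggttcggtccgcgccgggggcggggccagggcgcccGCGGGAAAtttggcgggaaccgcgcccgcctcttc

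The mitotic genes are HMMR (chr5:163460482-163460631, plus strand, matches 28 and 22 bases before the start), CDC20 (chr1:43358831-43358980, plus strand, 65 bases) and ASPM (chr1:197146670-197146819, minus strand, 113 bases). CDC20, the activator of the anaphase-promoting complex, rose from 11.40 to 12.57, and ASPM, a spindle pole protein, from 10.20 to 11.36.
HMMR: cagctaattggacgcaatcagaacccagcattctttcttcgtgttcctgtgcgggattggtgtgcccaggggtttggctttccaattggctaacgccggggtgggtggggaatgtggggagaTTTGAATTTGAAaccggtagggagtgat
CDC20: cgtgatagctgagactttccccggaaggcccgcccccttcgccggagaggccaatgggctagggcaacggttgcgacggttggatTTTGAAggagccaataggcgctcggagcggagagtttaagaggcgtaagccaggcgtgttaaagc
ASPM: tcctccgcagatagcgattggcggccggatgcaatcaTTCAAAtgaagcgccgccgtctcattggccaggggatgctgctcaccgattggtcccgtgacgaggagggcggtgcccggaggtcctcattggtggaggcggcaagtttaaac

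Inhibitors of cyclin-dependent kinases rose beside these changes. CDKN1A, which encodes p21, read 5.21 ± 0.01 in vehicle, 8.85, 8.68 and 8.37 at 4 h and 10.85, 10.60 and 10.80 at 24 h (2.12 ± 0.13 after 4 h, limma adjusted p = 1.47e-07). CDKN2B, which encodes p15, was near the floor at 4 h (2.84, 2.85 and 3.36) and read 6.20, 5.80 and 5.57 at 24 h. CDKN2D rose by 1.63. CDK4, the kinase that p15 and CDKN2D inhibit, fell from 11.77 to 10.46, and RBL1, the pocket protein p107 and itself an E2F target, from 8.96 to 6.92. Over the 15 genes of this list, which also holds the D cyclins and their kinases, 7 rose and 5 fell. In homologous recombination and the Fanconi pathway 9 of 19 genes fell and none rose, with EXO1, the resection nuclease, down by 2.24 to 6.25 and the checkpoint kinase gene CHEK1 down by 1.02 to 7.58. Among replication-dependent histones 2 of 13 rose, H2AC6 from 2.41 to 4.87 and H2BC12 by 0.60.

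Growth genes fell in parallel. MYC read 12.49 ± 0.10 in vehicle, 9.85, 9.55 and 9.72 at 4 h and 8.25, 8.16 and 8.14 at 24 h, so its later fall of 1.52 ± 0.08 (limma adjusted p = 6.44e-08) came on top of 2.78 before. Of 32 ribosome biogenesis genes 26 fell after 4 h and none rose (median -0.90), and 24 of them had already fallen at 4 h. MYBBP1A went from 6.61, 6.72 and 6.83 to 4.41, 4.29 and 4.61, UTP20 from 5.70 to 3.54 and TSR1 from 9.13 to 7.09, all of them nucleolar or ribosome assembly factors. POLR1B, a subunit of RNA polymerase I, fell by 0.79 to 7.46, and its difference from vehicle had been -1.90 at 4 h. RNA45SN5, annotated as the precursor that this polymerase makes, read higher at 24 h, as given above. Whether its probe set reads the precursor or mature ribosomal RNA was not tested. Of 33 cytosolic ribosomal protein genes 1 rose and 3 fell, and RPS25 fell most, by 0.41. Without replicate 2 of the 4 h group 10 of these genes were lower, and with array medians subtracted 1 was lower and none higher.

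The partners of MYC showed no common course, with 2 of 12 genes higher and 3 lower. MAX fell by 0.52 and MNT by 0.69, though neither was called when probe sets were averaged (-0.23 and -0.13). Nucleotide synthesis and folate genes fell in 17 of 27 cases and rose in 1 (none without replicate 2 of the 4 h group). PFAS (-2.20), PAICS (-1.70) and ATIC (-1.36) act in purine synthesis, and CAD (-1.42) and CTPS1 (-1.37) in pyrimidine synthesis. PFAS read 9.31, 8.99 and 9.31 at 4 h and 7.13, 7.07 and 6.80 at 24 h. Cytosolic tRNA synthetases fell in 12 of 17 cases, VARS1 from 9.29 to 7.21 and FARSB from 10.20 to 8.63, and none rose. Of 34 targets of the amino acid response factor ATF4 3 rose and 9 fell (14 without replicate 2 of the 4 h group). PSAT1, of serine synthesis, fell by 1.54 to 9.65 and the amino acid transporter SLC7A5 by 1.23 to 9.31. ATF3, a stress factor in the same list, rose by 1.04 to 8.08, and DDIT3, which encodes CHOP, read 6.87 and 6.54 (-0.33 ± 0.13, limma adjusted p = 0.099).

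Mitochondrial genes encoded in the nucleus also fell. Mitochondrial translation and DNA maintenance had 24 of 33 genes lower and 2 higher (1 higher without replicate 2 of the 4 h group), with a median of -0.73. TFAM, which packages and transcribes mitochondrial DNA, read 9.87, 9.91 and 10.06 at 4 h and 8.39, 8.70 and 8.52 at 24 h (-1.40 ± 0.14, limma adjusted p = 8.59e-06), and the mitochondrial synthetase genes SARS2 (-2.00) and EARS2 (-1.56) fell more. In the respiratory chain 18 of 31 genes fell and none rose, and the median was -0.22 (12 fell when array medians were subtracted, and 1 rose after quantile normalization). ATP5MC1, a subunit of the ATP synthase ring, fell by 1.27 to 8.86. COX10, which makes the intermediate heme o on the way to heme a of cytochrome oxidase, fell by 0.74 to 5.98. In the tricarboxylic acid cycle, pentose phosphate pathway and NADPH supply 11 of 23 genes fell and 3 rose (7 fell when array medians were subtracted, and 5 rose after quantile normalization). NADK2, the mitochondrial NAD kinase, fell by 1.37 and IDH3A by 0.91, whereas IDH2, which makes mitochondrial NADPH, rose by 0.64 to 11.94. Glycolysis had 7 of 20 genes lower and 1 higher, with TPI1 down by 0.57. HK2, its 1 gene called higher (0.49), was not called with probe sets averaged.

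Protein folding and turnover genes also fell after 4 h. Endoplasmic reticulum chaperones were lower in 14 of 22 cases and higher in 3, and 10 of the 22 were placed among the recovering genes. HSPA5, the chaperone BiP, read 13.23, 13.14 and 13.25 at 4 h and 12.04, 12.19 and 12.02 at 24 h, and the fall of 1.12 ± 0.05 (limma adjusted p = 2.88e-08) took it 0.76 below vehicle. SDF2L1 (-1.40) and DNAJB9 (-1.20), which work with it, had peaked at 90 min. Heat shock genes were lower in 14 of 23 cases and higher in 1 (none higher without replicate 2 of the 4 h group). HSPA4L went from 6.70 to 4.33, the mitochondrial chaperone HSPA9 from 11.73 to 10.33 and HSPE1, the co-chaperonin of the mitochondrial matrix, from 13.10 to 12.01. Proteasome subunits were lower in 21 of 28 cases with a median of -0.36. With array medians subtracted 14 were lower, and without replicate 2 of the 4 h group 26 were. Of the 21 genes 14 were called only after 4 h. PSMD1 led with 10.40, 9.90 and 10.25 at 4 h and 8.67, 8.63 and 8.53 at 24 h, and PSMD11 (-0.73) and PSMD3 (-0.72) followed, of which PSMD11 was not called with probe sets averaged.

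Receptors and effectors of monocytes and macrophages rose in 17 of 30 cases and fell in 3 (5 with probe sets averaged), with a median of 0.99. ITGAX, the integrin CD11c, read 2.64, 3.19 and 2.79 at 4 h and 5.93, 5.77 and 5.48 at 24 h. FPR1, the formyl peptide receptor, went from 5.73, 5.14 and 5.69 to 8.14, 8.13 and 8.01 (2.57 ± 0.33, limma adjusted p = 8.38e-05). TREM1, an amplifier of inflammatory signalling, rose by 2.31 to 9.88 and S100A9, a calprotectin subunit, by 1.16 to 10.15. Its partner S100A8 stayed at 9.44 and 9.75 (0.31 ± 0.14, adjusted p = 0.161). CD36, the scavenger receptor for oxidized lipoproteins, turned back from 10.57, 10.50 and 10.53 to 9.27, 9.28 and 9.10, and CYBB fell as given above. CD14 stayed at 2.23 and 2.21, so the rise of macrophage genes did not take in this defining marker.

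Genes of the azurophil granule and of progenitors moved down in 9 of 19 cases and up in 3. PRTN3, proteinase 3, read 11.53, 11.24 and 11.28 at 4 h and 9.45, 9.51 and 9.57 at 24 h, and CTSG, cathepsin G, 13.73, 13.50 and 13.74 and then 12.35, 12.30 and 12.31. CEBPE, a factor of late granulocyte maturation, rose by 0.96 to 7.58. Lysosomal genes rose in 16 of 26 cases and none fell (median 0.50), though with probe sets averaged 1 fell and the median was 0.27, and without replicate 2 of the 4 h group 1 fell. CTSB, cathepsin B, rose from 11.95 to 13.21 with all 5 of its probe sets, PSAP, the precursor of the saposins, from 10.41 to 11.26, and the proton pump accessory subunit ATP6AP1 from 10.44 to 11.39. Of 25 autophagy genes 8 rose and 2 fell, which is 32% and 8% against 12.8% and 10.7% of all genes. A mean of at least 4 was reached by 24 of them, and 24.7% of all such genes rose. Only 6 rose with array medians subtracted, in a fit of the 6 arrays alone, or without replicate 2 of the 4 h group. The receptor OPTN rose by 1.70 to 9.19 and MAP1LC3B, which coats autophagosomes, by 0.73 to 11.47.

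Cholesterol efflux and lipid storage genes rose in 8 of 25 cases (32%) and fell in 3 (12%), and the list median was -0.03. FABP4, the fatty acid binding protein of macrophages and fat cells, went from 6.76, 6.54 and 6.49 to 8.47, 8.37 and 8.23 (1.76 ± 0.13, limma adjusted p = 7.81e-07). PPARG, its transcriptional activator, rose from 8.06 to 8.91. The falls in this list were 6 rather than 3 without replicate 2 of the 4 h group. Proteases and receptors of the urokinase and coagulation systems rose in 7 of 21 cases and none fell, with MMP1 first and then THBD, thrombomodulin, from 8.01 to 9.39, and the protease inhibitor TIMP2 from 9.04 to 10.06.

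Cytokine genes took mixed courses. CCL2, the monocyte chemokine, read 10.64, 10.55 and 10.43 at 4 h and 12.65, 12.69 and 12.57 at 24 h (2.10 ± 0.07, limma adjusted p = 2.70e-09), and CCL7, encoded beside it, went from a mean of 3.04 at 4 h to 6.22, 5.49 and 4.58 on the 24 h arrays. CXCL2 fell by 1.47 to 4.66, as CXCL8 fell. Over the 16 chemokines 5 rose (3 in a fit of the 6 arrays alone) and 2 fell. CCL4, another chemokine, read 3.02, 4.00 and 2.17 at 24 h against 2.03 at 4 h, and its call was lost in 6 of the alternative analyses. IL1B rose from 4.38 to 6.30 and its antagonist IL1RN from 7.32 to 8.24; of 27 NF-kB target and inflammatory genes 8 rose and none fell, or 7 and 2 without replicate 2 of the 4 h group. Among immediate early genes 8 of 35 rose and 7 fell (22.9% and 20%), with IER3 up from 6.47 to 8.82 and FOSL1 down from 4.74 to 3.84.

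Of 31 interferon-stimulated genes 8 rose and 4 fell, which is 25.8% and 12.9% against 12.8% and 10.7% of all genes. IFIT3, an inhibitor of viral translation, read 5.68, 5.13 and 5.57 at 4 h and 7.38, 7.83 and 7.76 at 24 h. IRF9, part of the factor that type I interferon activates, rose from 5.21 to 6.96, IRF1 from 5.18 to 6.41 and GBP2 from 4.68 to 5.77. Of the 31 members 13 were under 4 on all 6 arrays.

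Of 23 p53 target genes 7 rose and 2 fell (none fell in a fit of the 6 arrays alone), and CDKN1A rose most. RRM2B, the p53-inducible subunit of ribonucleotide reductase, rose from 9.05 to 10.20, TIGAR from 7.36 to 8.30 and the repair gene DDB2 from 7.45 to 8.25. GADD45A (0.65, limma adjusted p = 0.0427) and BAX (0.64, adjusted p = 0.0327) lost their calls in 7 and 5 of the alternative analyses, among them the fit without replicate 2 of the 4 h group. Of 20 proapoptotic genes 8 rose and 4 fell (5 rose without that array). BMF, a BH3-only protein, went from 5.80, 5.76 and 5.18 to 7.24, 7.49 and 7.28, and the death receptor gene TNFRSF10B from 9.91 to 10.55. BCL2L11, which encodes BIM, fell by 0.68 to 7.72. On the protective side 3 of 9 genes rose and 2 fell (1 with probe sets averaged), and BIRC5, given above, rose most. CFLAR, the inhibitor of caspase 8, rose by 0.59 to 8.71, BCL2A1 turned back by 0.54 to 11.75, and BCL2 fell by 0.54 to 7.11 but was not called with probe sets averaged. MCL1 read 11.42 and 11.67, and its call (0.25, adjusted p = 0.0169) turned to -0.10, not called, with probe sets averaged.

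Metal-handling genes moved both ways. Metallothioneins and zinc transporters fell in 6 of 12 cases and rose in 1 (2 with probe sets averaged), with the transporter SLC39A14 from 9.32 to 6.90 and the metallothionein MT1G from 7.18 to 5.13. MT2A fell by 0.61 to 8.23. In iron and heme metabolism 9 of 24 genes fell and 6 rose: beside HMOX1, the ferrireductase STEAP3 fell by 1.20 to 7.49 and the heme synthesis enzyme UROS by 1.19 to 6.60, whereas CPOX, another enzyme of that pathway, rose by 0.98 to 11.68. In the hypoxia response 7 of 21 genes rose and 4 fell (1 fell when array medians were subtracted), with PFKFB4 up by 0.77 and NDRG1 by 0.67. Of 11 DNA methylation and Polycomb genes 5 fell and 1 rose (3 fell when array medians were subtracted, and 2 rose with probe sets averaged): UHRF1 fell by 0.83 to 9.96 and HELLS by 0.90 to 9.03, and DNMT3B, a de novo methyltransferase, rose by 0.87 to 9.06.

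Markers of other cell types stayed low. Of 9 B cell markers, 11 erythroid and megakaryocyte markers and 14 fibroblast and epithelial markers none was called between 4 h and 24 h. Of 13 T and NK cell markers 1 was higher (2 without replicate 2 of the 4 h group) and 1 lower (none with array medians subtracted), CD4 (0.65), which monocytes also express, and NKG7 (-0.26). On all 6 arrays 7, 9, 12 and 11 of these markers, in that order, lay under 4. The summed level of the B cell markers ran from 27.5 to 29.4 at 4 h and from 27.0 to 27.9 at 24 h, and that of the erythroid and megakaryocyte markers from 32.2 to 33.9 and from 31.4 to 32.5. For the fibroblast and epithelial markers it ran from 40.7 to 43.7 and from 40.5 to 42.2, and for the T and NK cell markers from 45.6 to 46.4 and from 46.2 to 46.7.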

How the data were processed

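Gene expression was measured on 12 arrays of U937 cells. Per the labels' protocols, 200 ng of total RNA was primed at random and biotin was added at the ends after amplification. The authors deposited 1 log2 level per probe set and array, made with GCRMA in Affymetrix Expression Console per the submitters' processing notes; GCRMA subtracts background, equalizes the distributions of the arrays and summarises probes, so a level says nothing of total RNA per cell. Fewer cells of a type and less RNA per cell cannot be told apart. The deposited log2 values were used as given.

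Of 54675 probe sets 41097 carried 1 gene symbol, 1801 several and 11777 none, and only the first kind was used. Gene names come from the platform annotation, updated through RefSeq identifiers (41043 matched). The fit took in all 12 arrays and used limma 3.58.1 under R 4.3.3 (8 residual and 3.97 prior degrees of freedom, trended spread), with adjustment by Benjamini-Hochberg over 19775 genes in each contrast. Errors of levels are SD over 3 arrays, and errors of differences are SE. The labels call the replicates biological without naming separate cultures, so p-values cover the spread of these arrays only, whose number limits the precision. On simulated data for the 24 h against 4 h contrast 100 genes were given a 2-fold change and 100 a 4-fold change. The test found 93 and 100 of them, and 12 of its 205 calls were false. All others of the 19775 genes were left unchanged there, whereas 23.5% of genes were called on the measured arrays. Whether these shares hold for the measured arrays, where replicate 2 of the 4 h group stood apart, was not tested.

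The samples, the 44 lists (998 of 1104 entries measured) and the tests were chosen with earlier results of these data known, and the promoter motifs after these results were seen. Named genes were the 10 largest rises and falls with a higher mean of at least 4 and arrays that did not overlap, 5 per course and direction, up to 5 called members per list and a set of fixed genes, 241 in all. Further genes named were 6 chosen by promoter match, 2 that went against their list, and CD74 and HLA-DRB1, all after their values were seen. Same-numbered arrays of 4 h and 24 h deviated together with r of 0.178, -0.035 and -0.024, so the numbers were not used as pairs. Promoter matches were looked for in RefSeq windows. Intensity files and metabolite data were not analysed here.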

Additional observations from a re-analysis of the deposited data

How the results depend on the processing

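Alternatives for the 241 named genes gave 3357 values, of which 3258 kept their direction and side of the threshold; 21 genes lost a call somewhere, 11 gained one, and 2 turned sign without a call, MCL1 with probe sets averaged (-0.10) and RPLP1 after quantile normalization (-0.026). Array weights, which did not converge, gave 4149 genes higher and 3749 lower at 24 h. They gave 2336 recovering, 8906 persisting, 3956 moving further and 1023 called only after 4 h. Among early genes they gave 48 rises then lower, 61 falls then higher and 56 falls then lower. Subtracting array medians left 575 recovering and 1019 moving further. With probe sets averaged, 30 early rises went higher and 9 early falls lower. Leaving out 1 array at a time gave 1416 to 3272 persisting genes (lowest without vehicle replicate 3, then 1501 without vehicle replicate 1) and 10 to 26 early falls then lower (10 without 90 min replicate 2, 26 without 4 h replicate 2). The calls at 4 h against vehicle moved from 8021 to 3423 without vehicle replicate 3, 3969 with array medians subtracted and 16126 with array weights. Gene lists whose counts moved are given with them in the results. With the replicate number as a block 2561 genes were higher and 2146 lower; the numbers do not pair the samples. The cause of these shifts was not tested. Every alternative listed was run.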

Other observations

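Beside HLA-DRA, whose rise at 4 h was undone, other genes of the class II antigen pathway were looked at after its values had been seen. CD74, the invariant chain that guides class II molecules, read 9.63, 9.02 and 9.14 at 4 h and 8.73, 8.89 and 8.81 at 24 h (-0.45 ± 0.14, limma adjusted p = 0.0279), against 8.61 ± 0.11 in vehicle. HLA-DRB1, the beta chain partner of HLA-DRA, read 8.77, 8.52 and 8.71 at 4 h and 8.93, 8.96 and 8.85 at 24 h, where it stood 0.60 above vehicle. Its later difference was not called (0.25 ± 0.10, limma adjusted p = 0.123), and whether it differs from that of HLA-DRA was not tested. HLA-DRB1 probe sets can also read near-identical copies of the gene.

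Of 3107 called genes with more than 1 probe set, 34 that were higher by their brightest probe set had another called lower, and 16 that were lower had another called higher.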
